A study of Mus musculus with 6 samples.

Results

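The genes described here are 28 genes of cholesterol synthesis, its regulation by the transcription factor SREBP2, and the uptake, trafficking and storage of sterols. They were chosen by symbol from the 16123 genes of the table that compares livers of wild type (WT) mice with livers of *Txndc5*-deficient (KO) mice, and all 28 were in it. *Txndc5* encodes a protein disulfide isomerase of the endoplasmic reticulum, and the study used RNAseq to look for hepatic transcripts that differ when it is absent. WT mice carried the strain label C57BL/6Rj, and KO mice came from a line on a C57BL/6JRj background in which CRISPR editing had removed exon 3 of *Txndc5*. The line descends from 1 founder, so that it represents a single editing event, and mice of both genotypes came from crosses of heterozygous animals. All mice were males of 2 months that received a purified chow diet for 4 weeks and were fasted for 16 h before sacrifice. Each of the 3 WT and 3 KO libraries was made from liver RNA of 3 mice mixed in equal amounts, so that the spread between libraries is that between pools.

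Cholesterol is made in the liver from acetyl-CoA. The early enzymes build mevalonate and then the isoprenoid farnesyl diphosphate, squalene synthase and squalene epoxidase commit the chain to sterols, and the later enzymes turn lanosterol into cholesterol. When the endoplasmic reticulum is poor in sterol, SCAP escorts the precursor of SREBP2 to the Golgi, where it is cut and released to the nucleus, and it switches on most of these genes together with its own. The INSIG proteins hold SCAP back when sterol is plentiful. In the fasted liver this pathway is known to run low, and feeding or loss of sterol turns it up.

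Promoter sequence is shown first, because genes of this set are known to share binding sites that act with SREBP2. Whether these sites bear on the reads described further on was not tested. RefSeq windows from 250 bases before to 50 bases after each start site (GRCm38.p6) were matched for 22 of the 28 genes, in 28 windows. *Sqle*, *Fdps*, *Fdft1*, *Stard4*, *Npc1* and *Soat2* were not searched. The sterol regulatory element, a 10-base site bound by SREBP2, had no exact match on either strand in these windows, and 0.234% of all 32851 mouse windows held one. Its first 8 bases, ATCACNCC, were found in *Srebf2*, and its last 9 bases, TCACNCCAC, in *Hmgcs1*, against 2.54% and 1.24% of all windows, respectively. Both shorter forms overlap the full element and were chosen after the full one had not been found. The box CCAAT, bound by NF-Y, was present on either strand in 20 of 22 genes, against 37.4% of all windows and 42.8% of the 9104 genes that had a window and whose mean value reached 10. The box GGGCGG, bound by Sp1, was present in 21 of 22, against 35.7% of all windows and 68.6% of those genes. The stretches below lie upstream of the start sites of *Srebf2* (chr15:82147048-82147180, plus strand), *Insig1* (chr5:28071173-28071362, plus strand) and *Hmgcs1* (chr13:119690151-119690350, plus strand), where the annotation has no exon. The last is a short stretch before the RefSeq start of *Msmo1* (chr8:64733625-64733654, minus strand), which lies within an exon of the GENCODE M21 annotation. Capitals mark CCAAT and GGGCGG boxes, read as such or as their reverse complements, and the partial sterol elements of *Srebf2* and *Hmgcs1*.
Srebf2: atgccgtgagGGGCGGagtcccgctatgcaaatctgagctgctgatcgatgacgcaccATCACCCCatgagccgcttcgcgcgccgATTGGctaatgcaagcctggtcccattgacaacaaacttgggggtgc
Insig1: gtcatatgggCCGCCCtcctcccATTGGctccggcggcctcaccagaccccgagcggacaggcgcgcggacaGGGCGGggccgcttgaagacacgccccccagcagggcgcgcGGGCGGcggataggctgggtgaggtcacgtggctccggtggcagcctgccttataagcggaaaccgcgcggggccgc
Hmgcs1: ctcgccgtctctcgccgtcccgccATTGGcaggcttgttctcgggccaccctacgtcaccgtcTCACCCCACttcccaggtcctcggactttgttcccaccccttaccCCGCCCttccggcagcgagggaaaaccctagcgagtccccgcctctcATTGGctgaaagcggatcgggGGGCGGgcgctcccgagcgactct
Msmo1: gcaGGGCGGgagtgGGGCGGaCCAATtacg
In *Srebf2* the partial sterol element began 163 bases before the start and the NF-Y box 135 bases before it. In *Hmgcs1* the partial element began 137 bases before the start, between NF-Y boxes at 176 and 45 bases. *Insig1* had 3 Sp1 boxes and 1 NF-Y box in this stretch, and *Msmo1* held Sp1 boxes 73 and 62 bases and an NF-Y box 55 bases before its start. A match of these letters is a description of the sequence and not a site of binding.

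The libraries held 44040160 to 46050030 clean reads each, of which 91.63% to 93.66% were mapped. *Txndc5* (gene 105245, GENCODE M21 on GRCm38, chromosome 13 from 38500079 to 38528824, minus strand) had a value of 2697 in WT, and the 90.8 left in KO were 3.37% of it. Of 9 measured hepatocyte markers 2 were higher in KO (median log2 ratio -0.20), and albumin was at 1329550 in WT and 1332580 in KO. All 6 red cell markers whose mean value reached 10 were higher in KO (median log2 ratio 0.67), and the markers of that list summed to 118843 in WT and 180454 in KO. The value deposited for each genotype is 1 number per gene on the scale of reads divided by a size factor. It combines the 3 libraries, so that no spread can be read from it. Reads of the single libraries were therefore worked back from these values for the genes where that gave a single answer, and the recovered libraries were named A to C within each genotype by decreasing size factor, because they could not be tied to the numbers of the pools. KO library A and WT library A stood apart from the other 4. Their size factors were 1.31 and 1.22, and those of the others ranged from 0.818 to 1.04. Their deviations from each gene's mean within their own genotype ran together across genes (r = 0.65, as a description). Results are therefore also given without each library.

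By the deposited values, 23 of the 28 genes were higher in KO and 5 were lower. Of the 11367 genes whose mean value reached 10, all 28 among them, 42.3% were higher in KO. The median log2 ratio of KO over WT was 0.35 for the 28 genes and -0.05 for all those genes. A difference of at least 1.5-fold upward was seen in 5 genes, *Sqle*, *Insig1*, *Msmo1*, *Cyp51* and *Nsdhl*, against 1.57% of all genes, and none was lower by that factor, against 5.79%. In the genes whose reads could be followed by library, this excess rested on 1 of the 3 KO libraries, KO library B, without which 8 of 19 were higher in KO. In whole liver, fewer cells of a type and less RNA per cell cannot be told apart. These values had been shrunken toward equality by the authors' DESeq2 comparison, so that their ratios understate a ratio of means for genes with a large spread.

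**Figure D1:**
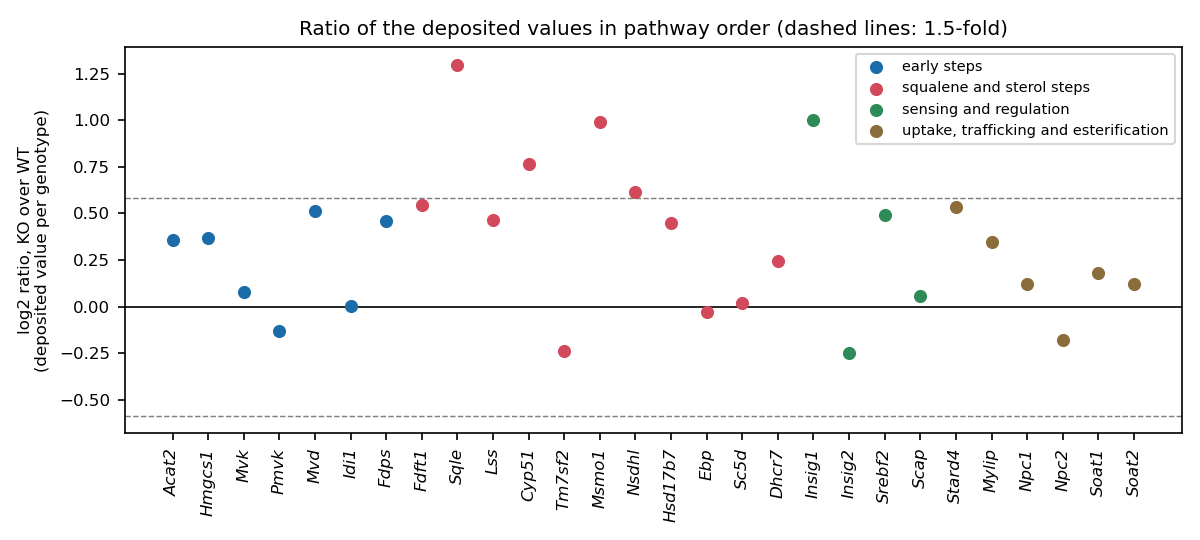
Log2 ratio of the deposited value of KO over that of WT (vertical axis) for the 28 genes in the order of the pathway (horizontal axis), coloured by role, with no error because 1 value exists per genotype. *Sqle* stands highest at 1.30, 5 genes lie past the upper dashed line at 1.5-fold and 5 genes lie below 0.

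Among the 7 early genes, 6 were higher in KO and none reached 1.5-fold (median log2 ratio 0.36). *Acat2*, whose product joins acetyl-CoA units in the cytosol, was at 246 in WT and 314 in KO (log2 ratio 0.36), and *Hmgcs1*, the cytosolic HMG-CoA synthase, at 205 and 264 (0.37). *Mvk* and *Pmvk* encode the kinases that phosphorylate mevalonate in turn, and they differed little, with 272 against 287 (0.08) and 208 against 190 (-0.13). *Mvd*, the decarboxylase that makes isopentenyl diphosphate, was at 70.4 and 101 (0.52). *Idi1*, the isomerase of that product, was at 75.5 and 75.8 (0.01). *Fdps*, which condenses these units to farnesyl diphosphate, was at 412 and 566 (0.46).

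Of the 11 genes of the squalene and sterol steps, 9 were higher in KO, 4 of them by at least 1.5-fold, and the median log2 ratio was 0.47. *Fdft1*, squalene synthase, was at 889 in WT and 1299 in KO (log2 ratio 0.55). *Sqle*, squalene epoxidase, which catalyses the first oxygen-requiring step, was at 48.5 and 119 (1.30). *Lss*, which closes the rings to lanosterol, was at 187 and 259 (0.47). The enzymes that demethylate lanosterol followed the same direction. *Cyp51*, the 14-demethylase, was at 221 and 377 (0.77), *Msmo1*, the C4-methyl oxidase, at 229 and 455 (0.99), *Nsdhl*, the decarboxylating dehydrogenase that acts after it, at 109 and 167 (0.62), and *Hsd17b7*, the ketoreductase of the same complex, at 347 and 474 (0.45). Some of the abundant enzymes went the other way or stayed level. *Tm7sf2*, a sterol reductase, was at 2009 and 1701 (-0.24), and *Ebp*, the sterol isomerase, at 3706 and 3639 (-0.03). *Sc5d*, the desaturase of the B ring, was at 967 and 981 (0.02), and *Dhcr7*, which reduces 7-dehydrocholesterol to cholesterol, at 668 and 790 (0.24).

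Of the 4 genes of sensing and regulation, 3 were higher in KO. *Insig1*, whose transcript is itself a target of SREBP2, was at 287 in WT and 576 in KO (log2 ratio 1.004), whereas its paralog *Insig2*, which has a separate liver promoter that answers to fasting, was at 1916 and 1612 (-0.25). *Srebf2*, the gene of SREBP2, was at 648 and 911 (0.49). *Scap*, the escort and sterol sensor, was at 4821 and 5019 (0.06). The direction of *Insig1* and of *Insig2* was thus opposite by these values.

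Of the 6 genes of uptake, trafficking and esterification, 5 were higher in KO and none was past 1.5-fold (median log2 ratio 0.15). *Stard4*, a soluble sterol carrier, was at 59.2 and 85.8 (0.54), and *Mylip*, the ubiquitin ligase that degrades the LDL receptor, at 80.8 and 103 (0.34). The lysosomal exporters *Npc1* and *Npc2* were at 2984 and 3241 (0.12) and at 1140 and 1007 (-0.18). *Soat1* and *Soat2*, which store cholesterol as esters, were at 10.9 and 12.4 (0.18) and at 332 and 361 (0.12).

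Levels were compared between genes only per kb of the gene length given in the table. On that scale *Ebp* was the most abundant with 2109 per kb in WT and 2071 in KO, followed by *Tm7sf2* with 1343 and 1137, *Scap* with 1153 and 1201, and *Insig2* with 772 and 650. *Sqle* ranked 25 with 17.6 and 43.4 per kb, and *Soat1* was the lowest with 2.28 and 2.59. The 6 most abundant genes of the set had log2 ratios from -0.25 to 0.12, *Fdps* and *Fdft1*, next among the enzymes, had 0.46 and 0.55, and the genes past 1.5-fold ranked from 11 (*Msmo1*) to 25 (*Sqle*). Whether neighbours in this order differ beyond the spread between pools cannot be read from 1 value per genotype.

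**Figure D2:**
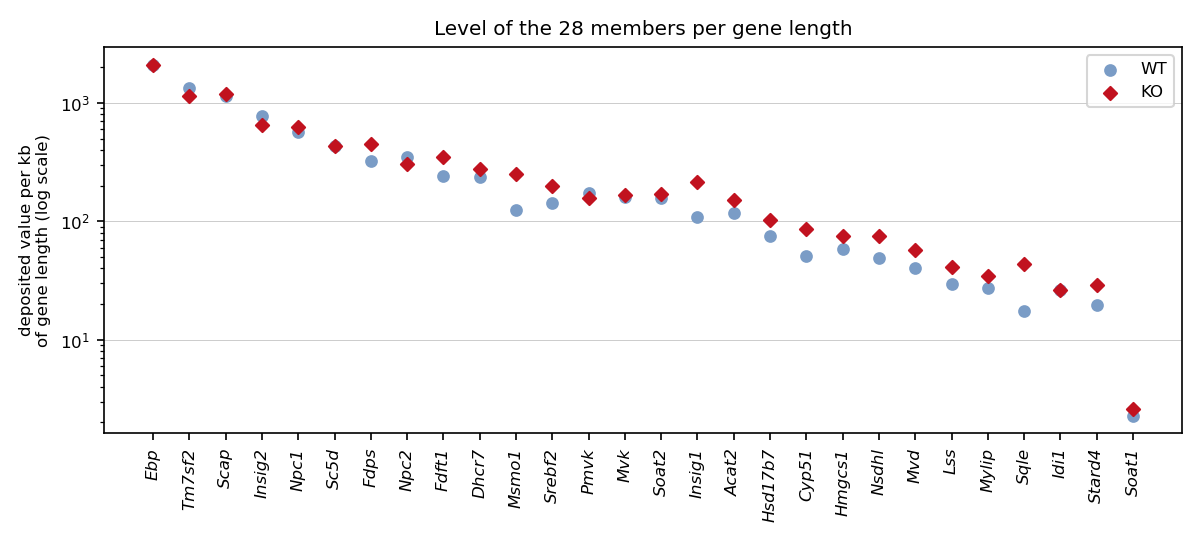
Deposited value per kb of gene length on a log scale (vertical axis) for the 28 genes, ordered by the mean of both genotypes, with blue circles for WT and red diamonds for KO. *Ebp* leads with 2109 per kb in WT, *Soat1* is last with 2.28, and the gap between the symbols is widest for *Sqle*.

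Reads were recovered in each of the 6 libraries for 19 of the 28 genes, 14 of them among the 18 enzymes of synthesis. For *Sc5d* and *Soat2* several answers were left, and *Fdft1*, *Tm7sf2*, *Ebp*, *Insig2*, *Scap*, *Npc1* and *Npc2* were too abundant to be worked back. The reads of *Acat2*, *Hmgcs1*, *Mvk*, *Fdps*, *Cyp51*, *Msmo1*, *Hsd17b7*, *Dhcr7*, *Insig1* and *Srebf2* were chosen among 99 to 53844 possible sets, more than the median of 82.5 in the check of the recovery. The other 9 had 1 to 72. The values that follow are normalized reads, that is, reads divided by the size factor of the library.

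*Sqle* (gene 20775, chromosome 15 from 59315077 to 59331192, plus strand) was at 35.8, 347 and 19.2 in KO libraries A, B and C and at 31.0, 38.7 and 31.8 in WT libraries A, B and C. Only KO library B was high, while KO library A lay within the range of WT and KO library C below it. The value of KO library B rested on 359 reads (95% exact Poisson interval 323 to 398, counting error only), and it was 8.96 times that of the next library and 86.3% of the normalized reads of all KO libraries. The mean was 134 ± 184 (SD, n = 3) in KO and 33.8 ± 4.21 in WT, a log2 ratio of means of 1.98. Without KO library B it was -0.30.

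*Msmo1* (gene 66234, chromosome 8 from 64718139 to 64733792, minus strand) was at 127, 1152 and 189 in KO and at 158, 215 and 212 in WT. KO library B was again far above the others, 5.36 times the next, and the remaining KO libraries overlapped with WT. Its log2 ratio of means was 1.33 with all libraries and -0.30 without KO library B. *Cyp51* was at 259, 763 and 157 in KO and at 229, 165 and 221 in WT, with log2 ratios of 0.94 and 0.02, respectively. *Nsdhl* was at 89.2, 328 and 103 in KO and at 67.8, 131 and 109 in WT, with 0.76 and -0.09. In all of these sterol enzymes 1 KO library carried the difference between the genotypes.

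The remaining sterol enzymes showed the same library on top with a smaller distance. *Lss* was at 187, 432 and 173 in KO and at 151, 212 and 183 in WT. *Hsd17b7* was at 336, 770 and 347 in KO and at 509, 221 and 279 in WT. *Dhcr7* was at 368, 1262 and 773 in KO and at 402, 714 and 855 in WT. For *Hsd17b7* WT library A was also high, and for *Dhcr7* KO library A and WT library A were the lowest. Without KO library B the log2 ratio of means moved from 0.54 to -0.02 for *Lss*, from 0.53 to 0.02 for *Hsd17b7* and from 0.29 to -0.20 for *Dhcr7*.

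Among the early enzymes, *Mvd* was at 22.1, 253 and 46.3 in KO and at 35.9, 102 and 53.8 in WT, and *Fdps* at 174, 1339 and 260 in KO and at 200, 431 and 529 in WT. For both, KO libraries A and C were lower than most WT libraries while KO library B was 2.47 and 2.53 times the next library. Leaving it out turned the log2 ratio of means from 0.74 to -0.91 for *Mvd* and from 0.61 to -0.84 for *Fdps*, which is a difference of more than 1.5-fold in the other direction. *Idi1* was at 53.3, 169 and 5.6 in KO and at 137, 56.9 and 31.8 in WT. It varied widely within both genotypes, KO library C holding 5 reads of it (95% exact Poisson interval 1.62 to 11.7), and its log2 ratio of means went from 0.01 to -1.35 without KO library B.

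*Hmgcs1* (gene 208715, chromosome 13 from 119690379 to 119708260, plus strand) was at 285, 421 and 107 in KO and at 325, 118 and 150 in WT, so that KO library A and WT library A were high beside KO library B. *Acat2* was at 295, 407 and 250 in KO and at 208, 249 and 270 in WT. The kinases behaved in another way in the A libraries. *Mvk* was at 142, 499 and 225 in KO and at 91.4, 349 and 371 in WT, and *Pmvk* at 149, 280 and 138 in KO and at 138, 266 and 225 in WT. WT library A held 0.254 times the mean of the other WT libraries for *Mvk* but 2.42 times for *Hmgcs1* and 3.09 times for *Idi1*. It was below that mean in 10 of the 14 enzymes, against 35.7% of the 4181 genes whose recovered, normalized reads summed to between 60 and 600.

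**Figure D3:**
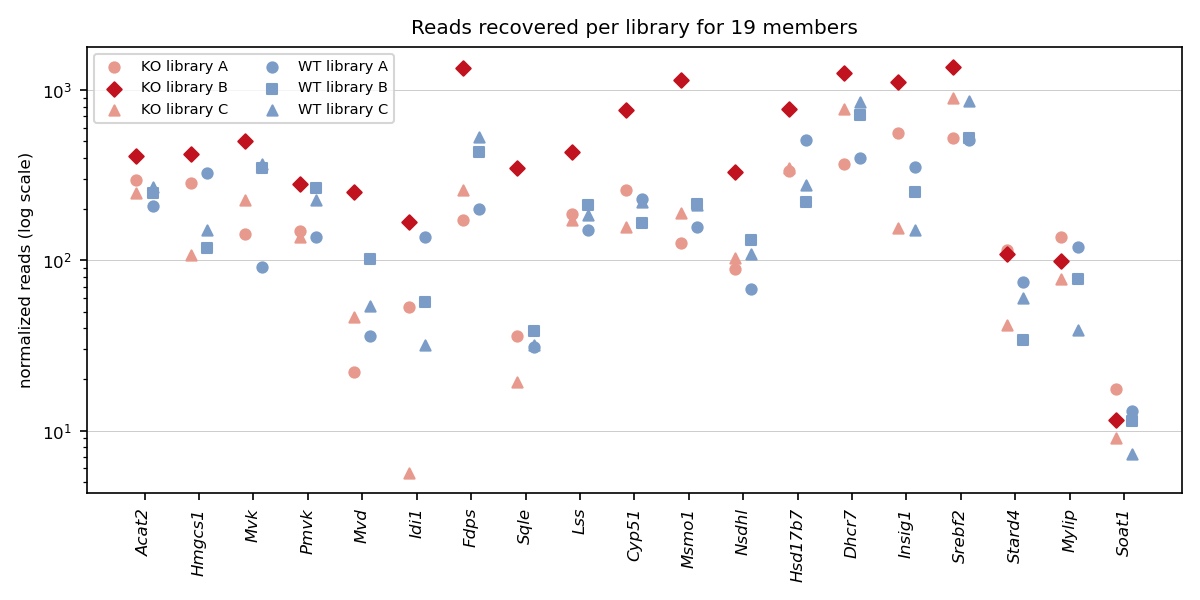
Normalized reads on a log scale (vertical axis) of the 19 genes with recovered reads, with red symbols for the KO libraries and blue symbols for the WT libraries, and the dark red diamond for KO library B. The diamond is the top symbol for all 14 enzymes and for *Insig1* and *Srebf2*, and not for *Stard4*, *Mylip* and *Soat1*.

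KO library B was the highest of the 6 in all 14 enzymes with recovered reads and in 16 of the 19 genes, against 9.54% of the 4181 genes. Only 6 of the 19 lay in the range of sums of these 4181 genes, and the other 13 were more abundant. It exceeded the next library by at least 1.5 times in 10 of the 19 genes, 8 of them enzymes, against 0.622% of the 4181 genes, and by at least 2 times in 7, all of them enzymes, against 0.144%. This library was singled out after its values had been seen. For the enzymes its normalized reads were 1.63 to 10.9 times the median of the other 5 libraries, with a median of 2.98, and over the 4181 genes that median was 0.933. Summed over the 14 enzymes, the normalized reads were 2523, 8422 and 2791 in KO libraries A, B and C and 2683, 3269 and 3522 in WT libraries A, B and C. The other KO libraries lay within or just below the range of WT.

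The red cell markers, whose deposited values summed to more in KO, did not follow this order. The summed normalized reads of 7 of them were 37.3, 132 and 343 in KO and 28.6, 39.8 and 56.3 in WT. KO library C was on top and KO library A lay within the range of WT. Among 3 recovered Kupffer cell and macrophage markers, *Adgre1* was at 119, 126 and 97.1 in KO and at 81.6, 78.5 and 72.1 in WT. *Timd4* was at 48.0, 31.9 and 51.9 in KO and at 37.6, 48.9 and 47.7 in WT, with KO library B the lowest. *Marco* was at 52.6, 49.2 and 130 in KO and at 13.9, 69.4 and 48.9 in WT. The 3 markers summed to 219, 207 and 279 in KO and to 133, 197 and 169 in WT. The part of these cells in the values of KO library B was not tested.

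**Figure D4:**
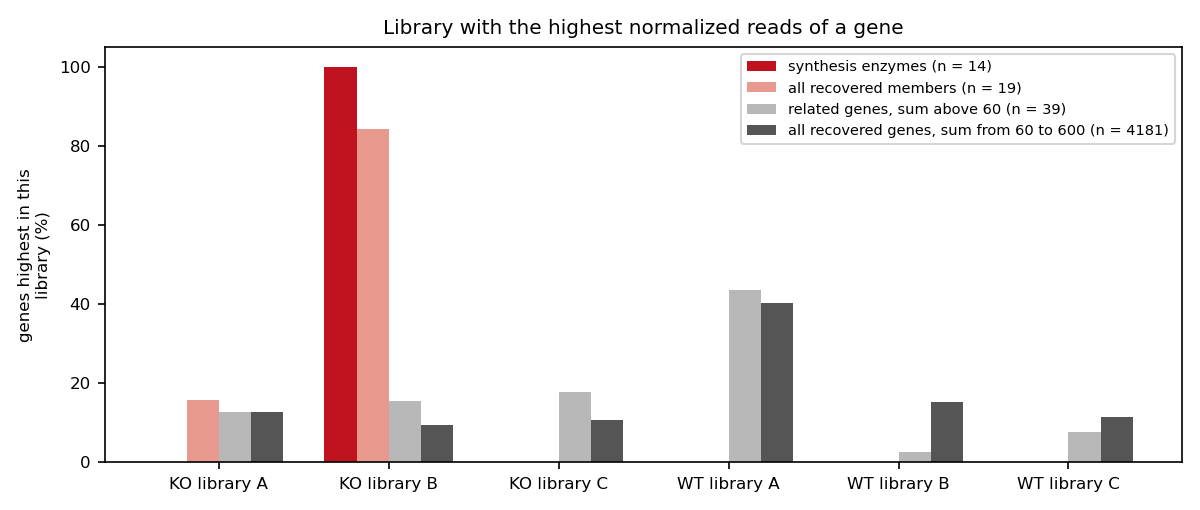
Percent of genes (vertical axis) whose normalized reads were highest in a given library (horizontal axis), for 14 enzymes, the 19 genes with recovered reads, 39 related genes with a sum above 60, and 4181 genes with a sum from 60 to 600. KO library B was highest for all 14 enzymes but for 15.4% of the related genes and 9.54% of the 4181 genes.

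Regulators of the pathway shared part of this pattern. *Insig1* (gene 231070, chromosome 5 from 28071363 to 28078662, plus strand) was at 559, 1118 and 156 in KO and at 354, 254 and 150 in WT. KO library B was the highest and KO library A the second, while KO library C was level with the lowest WT library. The mean was 611 ± 483 (SD, n = 3) in KO and 253 ± 102 in WT, with a log2 ratio of means of 1.27 and, without KO library B, of 0.50. *Srebf2* (gene 20788, chromosome 15 from 82147181 to 82205379, plus strand) was at 523, 1361 and 902 in KO and at 508, 520 and 862 in WT. Its KO libraries B and C were above all WT libraries and KO library A was between them, and the log2 ratio of means was 0.56 with all libraries and 0.18 without KO library B.

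The 3 recovered genes of uptake, trafficking and esterification did not have KO library B on top. *Stard4* was at 115, 109 and 41.8 in KO and at 75.1, 34.1 and 59.9 in WT. *Mylip* was at 138, 98.5 and 77.9 in KO and at 119, 77.3 and 39.1 in WT, and *Soat1* at 17.5, 11.6 and 9.03 in KO and at 13.1, 11.4 and 7.34 in WT. The highest library was KO library A in each, and leaving out KO library B changed their log2 ratios of means from 0.65 to 0.48, from 0.42 to 0.46 and from 0.26 to 0.33, respectively.

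The genotypes overlapped for all 19 genes. They did not for 5.29% of the 4181 genes, 2.92% with KO above and 2.37% with KO below WT. Exact permutation tests, two-sided and on the mean of log2(normalized reads + 1), gave single genes a p that ranged from 0.2 to 0.9, with 0.2 for *Acat2* and *Srebf2*, and the smallest p that 3 against 3 libraries allow is 0.1. Limma was run over the 4223 genes whose recovered reads summed to at least 60. Above a sum of 600 these were only genes of this set and of the related lists, because other genes were worked back only up to that sum. In this fit 0 of the 19 genes and 0 of the 4223 genes passed an adjusted p of 0.05, which is a background of 0.0%. For most of the 19 genes it is not a background of all genes of like abundance, and the same holds for the counts that follow from these 4223 genes. Without adjustment, 66 of these genes (1.56%) and 0 of the 19 had a p under 0.05, and in the planned range of 3211 genes 51 had one (1.59%). The smallest adjusted p of the 19 genes was 0.999. For *Sqle* limma gave a difference of 0.88 ± 0.85 (SE) with an unadjusted p of 0.33, and for *Insig1* one of 0.95 ± 0.61 with 0.15. The quasi-likelihood test of edgeR on the same reads also called 0 genes, with 75 at an unadjusted p under 0.05 (1.78%), and its unadjusted p was 0.055 for *Sqle* and 0.072 for *Insig1*. For the 19 genes with recovered reads, these tests called no difference between the genotypes, and the other 9 could not be tested. A difference that was not called is not thereby absent. On reads simulated for the planned range of 3211 genes, which are less abundant than most of the 19, limma called 16 of 100 genes changed 4-fold and 0 of 100 changed 2-fold. The edgeR test called 22 and 0 of them and 2 unchanged genes.

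With a term that sets both A libraries (the largest size factor of each genotype) apart from the others, limma called 2 of the 4223 genes (0.0474%), 2 of the 3211 of the planned range (0.0623%) and 0 of the 19, whose smallest adjusted p was 0.65 for *Insig1*. The log2 ratio of means was above 0 for 18 of the 19 genes with all libraries, with a median of 0.54 and 8 of them at 1.5-fold or more, against 38.7% of the 4181 genes above 0, a median of -0.11 and 4.4% at 1.5-fold or more. Without KO library B it was above 0 for 8 of the 19 genes and for 3 of the 14 enzymes, with a median of -0.02, none at 1.5-fold or more upward and 3 at 1.5-fold or more downward. Of the 4181 genes 40.1% were then above 0, 5.52% at 1.5-fold or more upward, and the median was -0.10. Their share at 1.5-fold or more downward was not computed, so that the 3 genes have no background here. For 10 of the 18 genes above 0 with all libraries the direction turned to lower. Of the 4181 genes, 1618 were above 0 with all libraries, and 233 of these turned. Without any other single library, the ratio was above 0 for 17 to 19 of the 19 genes, not always the same ones, with medians of 0.41 to 0.77. That range includes the libraries that stood apart, with 17 genes and a median of 0.73 without KO library A and 17 genes and a median of 0.53 without WT library A. *Acat2*, *Cyp51*, *Hsd17b7*, *Insig1*, *Srebf2*, *Stard4* and *Mylip* had a ratio above 0 whichever library was left out, although for *Cyp51* the difference in mean log2 values was -0.01 without KO library B.

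**Figure D5:**
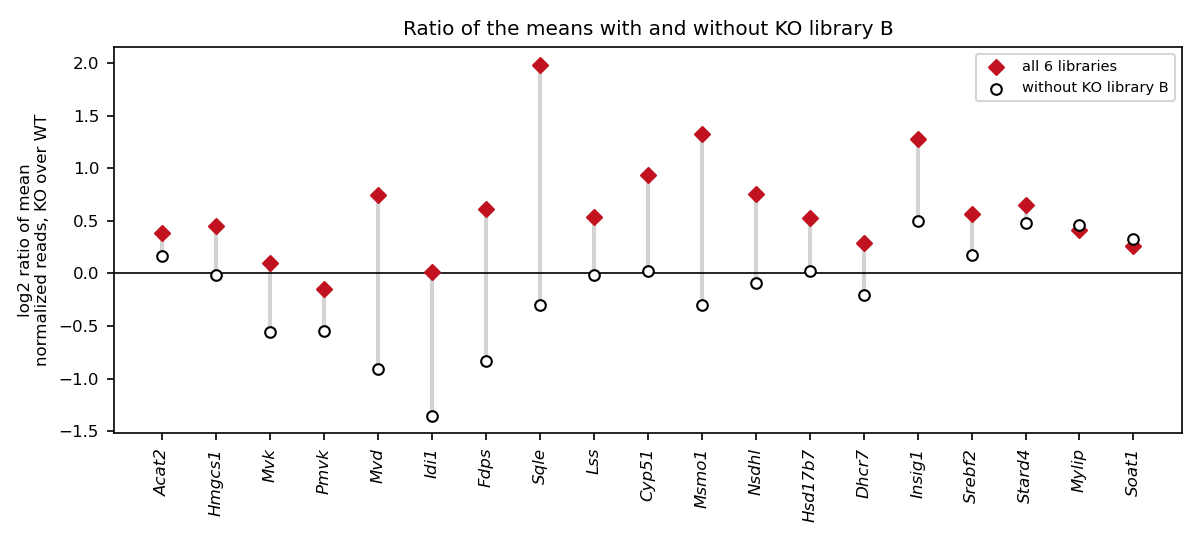
Log2 ratio of the mean normalized reads of KO over WT (vertical axis) for the 19 genes with recovered reads, as red diamonds with all 6 libraries and as open circles without KO library B. *Sqle* moves from 1.98 to -0.30 and *Msmo1* from 1.33 to -0.30, while *Stard4*, *Mylip* and *Soat1* stay above 0.

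Genes around the pathway were taken from lists, again by the deposited values and where the mean value reached 10. Of all genes with such a mean value, 42.3% were higher in KO. Those that process SREBP or degrade its partners on demand of sterol were higher in KO in 11 of 14 cases and none was past 1.5-fold (median log2 ratio 0.12). The largest differences in that list were those of *Mbtps2*, the site 2 protease that releases SREBP, at 33.3 in WT and 27.4 in KO (log2 ratio -0.28), and *Rnf139*, a sterol-responsive ubiquitin ligase, at 263 and 218 (-0.27). Both rested on WT library A, without which the log2 ratio of mean normalized reads went from -0.38 to 0.74 for *Mbtps2* and from -0.31 to -0.0079 for *Rnf139*. Isoprenoid branches, which draw on farnesyl diphosphate for dolichol, ubiquinone and prenylation, were higher in 6 of 15, with a median of -0.04 that turned to 0.01 after centring on all genes. *Pdss1*, of the ubiquinone side chain, was at 12.4 and 8.60 (-0.53), and *Ggps1*, geranylgeranyl diphosphate synthase, at 17.7 and 12.3 (-0.52). Without WT library A, the log2 ratio of mean normalized reads moved from -0.85 to -0.48 for *Pdss1* and from -0.83 to -0.26 for *Ggps1*, and without KO library A to -1.39 and -1.79, respectively. The difference between these branches and the sterol steps was not tested.

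Targets of SREBP1, the sister factor that drives fatty acid synthesis, were higher in KO in 12 of 14 cases, with a median of 0.31 and 3 at 1.5-fold or more. *Fasn*, fatty acid synthase, was at 1509 and 2555 (0.76), and *Aacs*, which activates acetoacetate for lipid synthesis, at 184 and 296 (0.69). *Aacs* had recovered reads, at 165, 439 and 331 in KO and 95.5, 354 and 53.8 in WT. Here KO library B was the highest, WT library B came second, and the groups overlapped. Its log2 ratio of means was 0.89 with all libraries, 2.06 without WT library B and 0.47 without WT library C. *Elovl6*, a fatty acid elongase of the same list named after its values had been seen, was at 398, 139 and 133 in KO and at 531, 206 and 124 in WT, with a log2 ratio of means of -0.36 that turned to 0.44 without WT library A.

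On the side of removal, 11 of 15 genes of bile acid synthesis from cholesterol were lower in KO, with a median of -0.19. The other 4 were higher, against 42.3% of all genes whose mean value reached 10. *Cyp7a1*, the rate-limiting enzyme of bile acid synthesis, was at 804 in WT and 374 in KO (-1.11), and *Cyp8b1*, the 12-hydroxylase, at 53126 and 41211 (-0.37). In normalized reads *Cyp7a1* was at 449, 340 and 238 in KO and at 1397, 640 and 470 in WT. All KO libraries were below all WT libraries, as in 2.37% of the 4181 genes, which are less abundant, with a two-sided exact permutation p of 0.1, the smallest that 3 against 3 allow, and an adjusted limma p of 0.999 (unadjusted 0.015). With the term for both A libraries the adjusted limma p was 0.092. WT library A was the highest, and without it the log2 ratio of means went from -1.29 to -0.70. In the paper's quantitative PCR on single mice, *Cyp7a1* was lower in KO without reaching significance. Export genes and LXR partners were higher in 4 of 10, with a median of -0.05. *Abcg1*, a sterol exporter, was at 59.8 and 81.1 (0.44), and *Abcg8*, the partner that excretes sterol into bile, at 1689 and 2274 (0.43).

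Of the genes that move sterol within the cell, 12 of 19 were higher in KO, with a median of 0.07. *Vps37a*, of the sorting complex ESCRT-I, was at 161 and 88.3 (-0.86) and *Osbpl8*, an oxysterol-binding protein relative, at 67.3 and 38.9 (-0.79). WT library A was the highest for both in normalized reads, with 332 for *Vps37a* and 151 for *Osbpl8*, and without it the log2 ratio of means was -0.22 and 0.0024, respectively, whereas without KO library A it was -1.97 and -1.96. With the term for both A libraries, the adjusted limma p was 0.24 for *Vps37a* and 0.38 for *Osbpl8*. The ketogenic paralogs were higher in 2 of 4, with *Bdh1*, which interconverts the ketone bodies, at 4305 and 4893 (0.18). Of 39 related genes whose recovered reads summed to more than 60, KO library B was the highest in 6 and at least 1.5 times the next library in none, whereas WT library A was the highest in 17, against 40.3% of the 4181 genes. These related genes reached sums beyond the range of the 4181.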

How the data were processed

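Liver RNA pools of WT and KO mice were sequenced as poly-A libraries by the authors' sequencing service. The submitters' notes name mm10, HISAT2, StringTie, Cufflinks, GATK, Bowtie2 and RSEM without their roles or versions. The authors deposited, for 16123 genes, 1 expression signal per genotype, in units of reads over a DESeq2 size factor. The mean of both signals is the mean over the 6 libraries and their ratio is the shrunken ratio of the authors' comparison. The deposited fold changes, p-values, adjusted p-values and directions of that comparison were not used. The deposited counts of clean reads and percent of mapped reads gave the depth.

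Reads per library were recovered from the signals. Genes with 1 read in 1 library all have the same value, so 6 such values, each found in 20 or more genes, gave what a read is worth per library, and the column in which those genes were higher gave its genotype. All sets of 6 whole numbers that gave a gene's mean within 1.1 roundings were listed, for sums up to 600 (all genes), 4000 (related genes) or 6000 (the 28 genes). Where several were left, the set whose DESeq2 ratio equalled that of the signals within 1e-06 (log2) was taken if it was alone. The ratio was calibrated on 3681 genes with 1 set (median error 1.13e-08). When the tolerance on the mean was widened 20-fold or 2000-fold, 269 of 269 and 60 of 60 genes were resolved rightly, from a median of 4 and 82.5 sets. The 19 genes with recovered reads had up to 53844 sets (*Srebf2*), beyond that check. Up to a sum of 400, 7878 of 8081 genes were resolved (97.5%).

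Genotypes were compared with limma 3.58.1 on log2(normalized reads + 1) with Benjamini-Hochberg adjustment (R 4.3.3), edgeR 4.0.16 and exact permutation tests, with DESeq2 1.42.0 used for the ratio. The range planned for limma, sums from 60 to 400, held 3211 genes but only *Soat1* of the 28 genes, so that the fit over every resolved gene with a sum of at least 60 is given. The simulated check was run in the planned range. Nothing states whether same-numbered pools are related, and p-values set the difference between genotypes against the spread between pools. The members and lists were chosen with earlier results of these data known. All 28 genes are named, and in each related list the 2 with the largest difference, except 1 gene that is not reported here. Marker lists of 6 other cell types beside hepatocytes were examined. Gene positions came from GENCODE M21, promoters from RefSeq.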

Additional observations from a re-analysis of the deposited data

How the results depend on the processing

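Of 282 recalculated values, 22 changed direction. With the ratios centred on the median of all genes, *Ebp* turned to 0.021, the isoprenoid branches to a median of 0.011, and 4 instead of 2 ketogenic paralogs were higher. A term for both A libraries gave 2 called genes in the planned range and 2 over every resolved gene, against 0. The median difference in mean log2 values of the 19 genes was 0.42, or 0.54 as a ratio of means, where *Idi1* turned from -0.70 to 0.013. Leaving out 1 library at a time gave medians of -0.037 to 0.66 and 7 to 19 genes higher in KO. Differences in mean log2 values then ran from -0.037 to 0.94 for *Hmgcs1*, -0.51 to 0.55 for *Mvk*, -0.50 to 0.022 for *Pmvk*, -0.84 to 0.88 for *Mvd*, -1.75 to 0.59 for *Idi1*, -0.75 to 0.72 for *Fdps*, -0.35 to 1.71 for *Sqle*, -0.0029 to 0.66 for *Lss*, -0.010 to 1.13 for *Cyp51*, -0.31 to 1.27 for *Msmo1*, -0.046 to 0.89 for *Nsdhl*, -0.23 to 0.66 for *Dhcr7* and -0.011 to 0.43 for *Soat1*. Of these 13 genes, 10 changed direction without KO library B. *Mvk*, *Mvd*, *Fdps* and *Dhcr7* did so also without WT library A, with -0.51, -0.21, -0.28 and -0.14. The cause was not tested. The range of sums from 60 to 600, edgeR, and the fits over every resolved gene with that term or without KO library B were added after seeing the data. No paired analysis was possible because no pool number could be given to a recovered library, and only the number 2 occurs in both genotypes. The 9 genes without recovered reads have no measure of spread here, and low counts such as those of *Soat1* leave a wide counting error.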

Other observations

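The other cell type lists were compared by the deposited values. Over all genes whose mean value reached 10, 42.3% were higher in KO. Kupffer cell and macrophage markers were higher in KO in 9 of 12 genes, with a median log2 ratio of 0.14, endothelial markers in 4 of 10 (median -0.03), stellate cell markers in 5 of 11 (-0.08) and cholangiocyte markers in 2 of 5 (-0.02). Lymphocyte markers were lower in 2 of 2 (-0.44). *Lima1*, which helps to return NPC1L1 to the cell surface in sterol absorption, and *Osbpl2*, an oxysterol-binding protein relative, were the 2 related genes beside *Cyp7a1* whose genotypes did not overlap in normalized reads, out of 39, against 5.29% of the 4181 genes with sums from 60 to 600, which are less abundant, and were named after their values had been seen. *Lima1* was at 734, 587 and 562 in KO and at 445, 386 and 374 in WT, with an adjusted limma p of 0.999 and a two-sided exact permutation p of 0.1, the smallest that 3 against 3 libraries allow.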
